A study of Danio rerio with 6 samples.

Results

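UDP-glucuronosyltransferases are membrane enzymes of the endoplasmic reticulum that join a sugar, usually glucuronic acid, to small lipophilic molecules. The sugar makes bilirubin, steroid and thyroid hormones, bile acids, drugs and pollutants soluble enough to be exported into bile or urine. In vertebrates the enzymes are best known from liver, gut and kidney. In the ugt1 cluster of vertebrates each gene has a first exon of its own, which encodes the part that binds the substrate, and shares its later exons with its neighbours. The ugt5 genes belong to a subfamily known from fish.

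The family was taken as every gene whose symbol begins with ugt and a digit and whose estimated read counts summed to at least 10 over the 6 libraries. This gave 37 of the 25920 genes in the deposited table. There were 13 ugt1 genes, 8 ugt2 genes, 15 ugt5 genes and ugt8. The summed count that chose them is a level over all libraries. It ranged inside the limit from 56.4 in ugt1b3 upward, and the excluded gene ugt5g2 had a sum of 1. The family was picked for description with earlier results of these data known, so counts over its members are a description and carry no test of their own.

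The libraries came from Tg(myl7:mCherry) zebrafish, in which the myl7 promoter drives a red fluorescent protein in heart muscle cells. Embryos were kept from 60 to 96 hours post fertilization (hpf) in the solvent DMSO or in 100 µM DAPT, which blocks gamma-secretase and with it the cleavage of Notch receptors. Each group had 3 libraries, and all carried the transgene and were taken at 96 hpf. The single comparison, DAPT against DMSO, asks which transcripts differ after this treatment. With a single compound at a single dose, its block of gamma-secretase and any other effect of it cannot be told apart. Libraries held 20542549 to 21808613 counts. Separate clutches or pools are not named in the labels, so every p-value rests on variation among these libraries that may be technical.

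Hearts are given as the tissue in the labels, whereas the design text speaks of embryos. All 8 heart muscle markers were detected, but so were all markers looked for of liver, intestine, pronephros (the embryonic kidney) and skin. The 8 heart muscle markers summed to 4254 to 8755 CPM (counts scaled to a common library size), and the 7 skin markers to 27445 to 31492 CPM. In these bulk libraries a change in the number of cells of a type and a change in RNA per cell cannot be told apart.

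With DAPT most of the ugt transcripts tested were higher. Of the 37 genes, 36 passed the filter on low counts and ugt1b3 did not. In edgeR's quasi-likelihood test over all 22092 genes tested, at an adjusted p of 0.05, 22 of the 36 rose, 3 fell and 11 did not pass. The background was high: 46.6% of all genes passed, 22.4% higher and 24.3% lower. Changes of at least 2-fold were rarer, at 2.40% of all genes higher and 5.69% lower. Among ugt genes 16 rose and 1 fell by that much. The median log2 fold change (DAPT minus DMSO, here and below) was 0.87 over the 36 genes and 0.00 over all genes tested. Values of the groups did not overlap in 26 of the 36, 23 higher and 3 lower with DAPT, against 56.8% of all genes, 27.8% higher and 29.0% lower. The family as a whole made up 0.0517 ± 0.00239% of all counts with DMSO and 0.137 ± 0.00120% with DAPT (mean ± SD, n = 3, here and below).

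**Figure D1:**
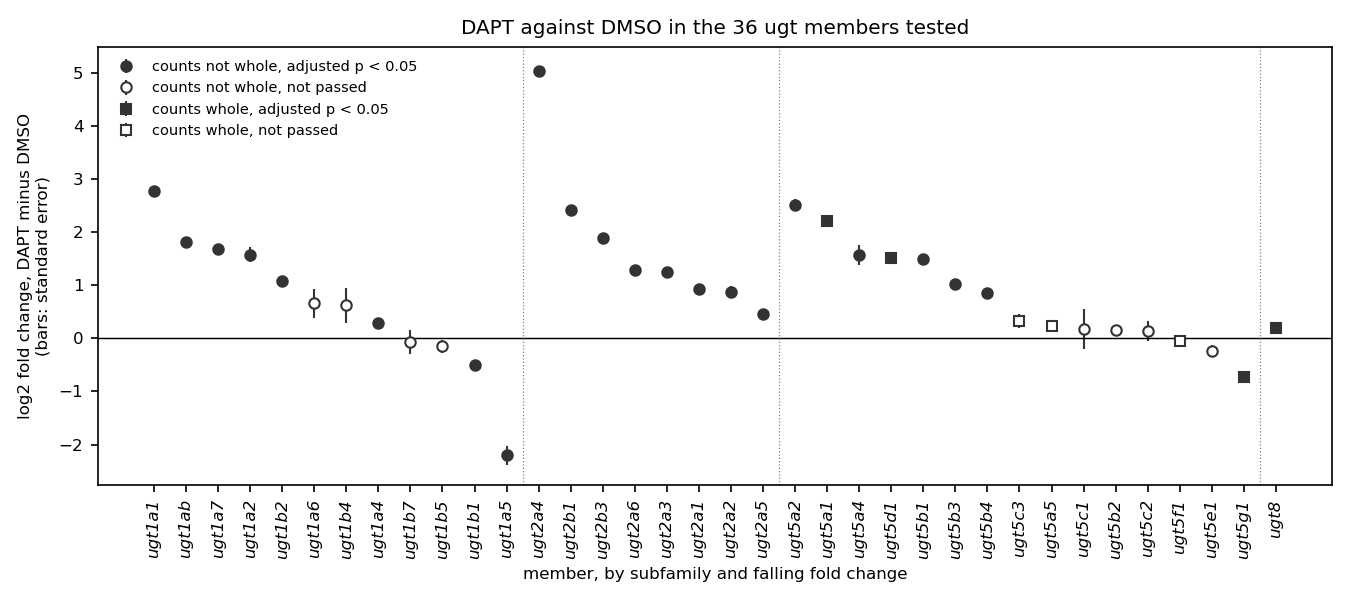
Log2 fold change (DAPT minus DMSO, with its standard error) of the 36 ugt members tested, by subfamily. Filled symbols passed an adjusted p of 0.05, and squares mark members whose counts were whole in every library. All 8 ugt2 genes lie above 0, ugt2a4 is highest at 5.03 and ugt1a5 lowest at -2.20.

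Counts that are not whole bear on how far a single gene can be read. Values that are not whole can arise when a read that matches several genes is divided among them, but the sources used here do not say how they arose. Such values were found in 30 of the 37 ugt genes (81.1%) and in 20.8% of all genes in the table. All 13 ugt1 and all 8 ugt2 genes were of this kind. In the ugt5 subfamily 9 of 15 were. The 7 genes with whole counts were ugt8, ugt5a1, ugt5a5, ugt5c3, ugt5d1, ugt5f1 and ugt5g1. How many reads each gene shares was not measured.

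The gene order in RefSeq's table of assembly GRCz12tu, a different assembly from the GRCz11 of the files, shows where members lie on top of each other. It holds 35 of the 37 genes and lacks ugt2a6 and ugt2b3. The annotated spans of 26 overlap that of another member. These are the 7 ugt1a genes (with ugt1ab counted among them), the 6 ugt1b genes, ugt2a1 to ugt2a4, ugt5b1 to ugt5b4, ugt5a1 with ugt5a2, and the 3 ugt5c genes. Of these 26, 24 had counts that were not whole, the exceptions being ugt5a1 and ugt5c3. Of the 9 members with no such overlap, 4 had counts that were not whole. Counts were unequal within a cluster: in the first DAPT library ugt1a7 held 4122 counts and ugt1a5 held 23.6.

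Sums over a subfamily do not depend on how reads are divided among its own members. The summed ugt1 level was 200.1, 206 and 189.6 CPM in the DMSO libraries and 592, 607 and 585 CPM in the DAPT libraries, a ratio of group means of 2.99. For ugt2 the sums were 101, 111 and 106 CPM against 476, 499 and 476 CPM, a ratio of 4.56. For ugt5 they were 145, 167 and 141 CPM against 294, 294 and 293 CPM, a ratio of 1.95. In each subfamily every DAPT library lay above every DMSO library, and the ratio was highest for ugt2. Of the ugt2 sum, the single gene ugt2a4 held 6.17 ± 0.622 CPM with DMSO and 202 ± 8.28 CPM with DAPT. The 7 genes with whole counts summed to 92.4 ± 7.14 CPM with DMSO and 138 ± 2.45 CPM with DAPT, which gives 1.49 as their ratio. The sum of the 30 other genes had a ratio of 3.15. These sums also differ in the subfamilies they hold, so their ratios do not compare whole with other counts alone. Of the whole-count sum, ugt8 held 44.7 ± 2.51 CPM with DMSO and 51.1 ± 1.18 CPM with DAPT. All ugt1 and ugt2 genes were among the 30.

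**Figure D2:**
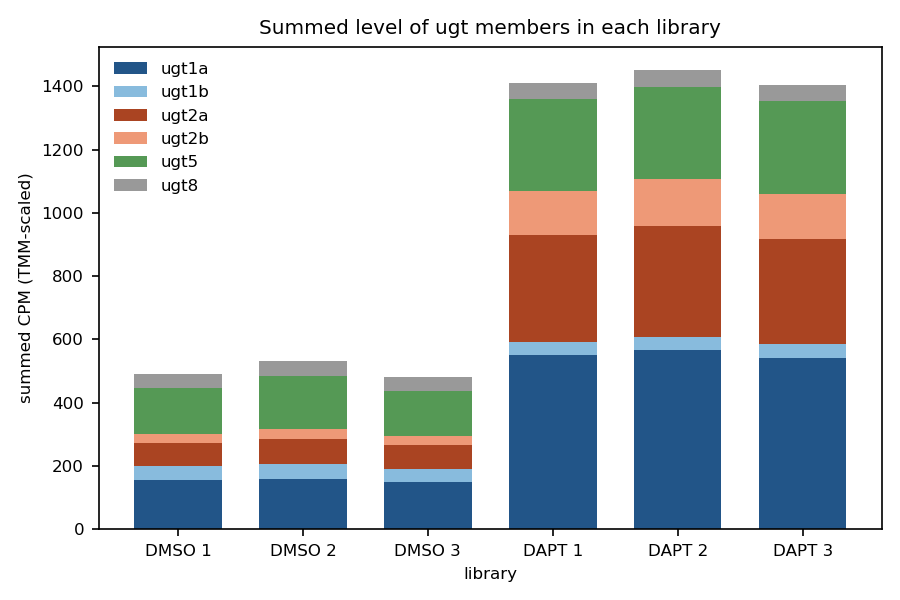
Summed level of the ugt members (CPM scaled with TMM factors) in each of the 6 libraries, stacked by subgroup, with the 15 ugt5 genes as 1 block. Totals run from 479.6 to 531 CPM in the DMSO libraries and from 1404 to 1452 CPM in the DAPT libraries. The ugt1a block goes from 155 to 552 CPM on average and the ugt1b block from 43.8 to 42.2 CPM.

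Inside ugt1 the values of the 2 clusters are given apart. The 7 ugt1a genes summed to 155 ± 5.59 CPM with DMSO and 552 ± 12.5 CPM with DAPT. The 6 ugt1b genes summed to 43.8 ± 2.96 and 42.2 ± 1.30 CPM, with overlapping groups. In TPM, where no TMM factors enter, the ugt1b sums were 44.6 ± 2.62 with DMSO and 38.6 ± 1.97 with DAPT, without overlap. Per gene, 5 of 7 ugt1a genes rose, 1 fell and 1 did not pass. Of the 5 ugt1b genes tested 1 rose, 1 fell and 3 did not pass. Of all genes tested 46.6% passed, 22.4% higher and 24.3% lower. No test of the difference between the clusters was run.

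The gene ugt1a7 (gene ID 100384891), which had the highest mean TPM of the family in each group, had 60.4, 63.0 and 58.2 CPM with DMSO and 197, 193 and 196 CPM with DAPT. It rose by 1.69 ± 0.06 on the log2 scale (± standard error, here and below, adjusted p = 1.14e-09). The gene ugt1ab, listed in RefSeq with the synonym Ugt1a3, had 47.6, 53.4 and 46.6 CPM against 174, 181 and 164 CPM. It rose by 1.81 ± 0.07. For ugt1a1 (gene ID 641488) the values were 24.3, 21.7 and 22.3 CPM against 149, 165 and 152 CPM, a log2 fold change of 2.77 ± 0.07 (adjusted p = 1.3e-10). Its human namesake encodes the enzyme that conjugates bilirubin. In these 3 genes the lowest DAPT library was several times above the highest DMSO library.

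Lower in abundance, ugt1a2 had 4.03, 2.66 and 3.62 CPM with DMSO and 10.1, 9.70 and 10.7 CPM with DAPT. It rose by 1.57 ± 0.14 on that scale. The gene ugt1a5 went the other way. It had 5.94, 4.55 and 5.80 CPM with DMSO and 1.13, 1.36 and 1.02 CPM with DAPT (-2.20 ± 0.18, adjusted p = 1.71e-06), and the groups lay far apart. It was the single ugt gene that fell by 2-fold or more, and its annotated span overlaps those of the 6 other ugt1a genes. The gene ugt1a4 rose weakly, from 12.5 ± 0.940 to 15.2 ± 0.978 CPM (0.29 ± 0.09, adjusted p = 0.0181). This call was lost without DAPT replicate 1 (adjusted p = 0.0812), DAPT replicate 3 (0.0525) or DMSO replicate 3 (0.0544), and by other scaling, as given below. Its adjusted p ranged from 0.0164 to 0.241 across the alternatives. The low gene ugt1a6, at 1.02 ± 0.318 CPM with DMSO, did not pass (0.66 ± 0.27, adjusted p = 0.0610). Without DMSO replicate 2 it passed, with a log2 fold change of 0.93 (adjusted p = 0.0184, range 0.0184 to 0.231 across the alternatives).

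In the ugt1b cluster ugt1b1, listed in RefSeq with the synonym ugt1aa, had 24.9, 26.0 and 24.0 CPM with DMSO and 17.5, 17.2 and 18.5 CPM with DAPT. It fell by 0.50 ± 0.07 on the log2 scale (adjusted p = 0.000117), and the groups did not overlap. The gene ugt1b2 rose, with 5.34, 6.28 and 5.75 CPM against 12.6, 11.1 and 12.8 CPM (1.07 ± 0.11, adjusted p = 6.89e-06). Both directions occur in this cluster, as they do among all genes tested, with 22.4% higher and 24.3% lower. The genes that did not pass were ugt1b5 at -0.15 ± 0.12, ugt1b7 at -0.07 ± 0.22 and ugt1b4 at 0.62 ± 0.33. Without DMSO replicate 3 ugt1b5 passed, at a log2 fold change of -0.27 (adjusted p = 0.0388, range 0.0388 to 0.798 across the alternatives). The gene ugt1b3 was not tested, at 0.356 ± 0.194 and 0.534 ± 0.123 CPM. Both ugt1b4 and ugt5c1, neither of them called, reached the filter's level in 2 of the DMSO and in all 3 DAPT libraries. The other genes tested reached it in all 6.

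All 8 ugt2 genes rose, where 22.4% of all genes tested were higher. The gene ugt2a4 (gene ID 791613) had 6.20, 5.54 and 6.78 CPM with DMSO and 198, 212 and 197 CPM with DAPT, so it rose by 5.03 ± 0.08 on the log2 scale (32.6-fold, adjusted p = 3.95e-12). For ugt2b1 (gene ID 100384895) the values were 17.4, 18.5 and 17.8 CPM against 91.7, 98.7 and 96.0 CPM, a log2 fold change of 2.42 ± 0.06. The gene ugt2b3 had 11.4, 14.2 and 12.9 CPM against 47.1, 48.7 and 45.9 CPM, or 1.88 ± 0.08. No other ugt gene changed by as much as ugt2a4, and in all 3 genes the groups were far apart.

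The remaining ugt2 genes rose less. The gene ugt2a3 had 19.1, 20.5 and 21.1 CPM with DMSO and 48.5, 49.9 and 46.1 CPM with DAPT (1.25 ± 0.07). The gene ugt2a6 had 8.95, 9.08 and 9.15 CPM against 21.5, 19.8 and 24.8 CPM (1.28 ± 0.10). In both genes the DMSO libraries were close together and every DAPT value was higher. Log2 fold changes of ugt2a1, ugt2a2 and ugt2a5 were 0.93 ± 0.10, 0.88 ± 0.10 and 0.45 ± 0.08, with adjusted p of 1.33e-05, 2.97e-05 and 0.000483. Thus ugt2a1, ugt2a2 and ugt2a3, whose spans overlap that of ugt2a4, changed by 0.88 to 1.25 beside its 5.03.

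Beside 46.6% of all genes passing (22.4% higher, 24.3% lower), the ugt5 subfamily had 7 of 15 genes higher, 1 lower and 7 not passing. Among its 4 ugt5a genes, ugt5a1 (gene ID 641479), whose counts were whole, had 6.32, 7.98 and 7.44 CPM with DMSO and 32.8, 34.6 and 33.1 CPM with DAPT (2.21 ± 0.09, adjusted p = 4.3e-09). Its overlapping neighbour ugt5a2 had 6.84, 7.72 and 5.08 CPM against 37.3, 39.0 and 35.9 CPM (2.51 ± 0.11). The low gene ugt5a4 had 1.29, 1.45 and 0.939 CPM against 3.21, 4.03 and 3.66 CPM (1.57 ± 0.19). These 3 genes were higher in every DAPT library. In contrast ugt5a5, also with whole counts, had 6.96 ± 0.563 and 8.18 ± 1.05 CPM and did not pass (0.23 ± 0.12, adjusted p = 0.131).

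The 4 ugt5b genes lie in a single overlapping cluster and together went from 82.7 ± 7.49 to 155 ± 1.71 CPM. The gene ugt5b1 had 12.6, 14.1 and 11.4 CPM with DMSO and 36.4, 34.8 and 35.9 CPM with DAPT (1.49 ± 0.08). For ugt5b3, the most abundant ugt5 gene by TPM, the values were 21.2, 26.9 and 20.2 CPM against 46.2, 46.4 and 46.1 CPM (1.02 ± 0.09). The gene ugt5b4 had 25.5, 31.8 and 28.9 CPM against 52.2, 51.6 and 53.0 CPM (0.86 ± 0.08). In these 3 genes the groups were apart, and in ugt5b3 and ugt5b4 DMSO replicate 2 was the highest of its group. The gene ugt5b2 had 20.0, 18.4 and 16.8 CPM against 21.8, 20.5 and 18.9 CPM, its groups overlapped, and it did not pass (0.15 ± 0.09, adjusted p = 0.179).

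Of the ugt5 genes outside these clusters, ugt5d1 (gene ID 100415794) rose and ugt5g1 (gene ID 570913) fell, both with whole counts and with no overlap with another member. The gene ugt5d1 had 7.37, 8.17 and 6.80 CPM with DMSO and 20.9, 21.6 and 21.2 CPM with DAPT (1.51 ± 0.09, adjusted p = 9.21e-08). The gene ugt5g1 had 11.4, 12.6 and 10.3 CPM against 6.74, 6.73 and 7.34 CPM (-0.72 ± 0.11, adjusted p = 0.000165). In both, the groups did not overlap. The genes ugt5c3, ugt5c1, ugt5c2, ugt5f1 and ugt5e1 did not pass, at 0.32 ± 0.13, 0.17 ± 0.38, 0.14 ± 0.19, -0.05 ± 0.12 and -0.24 ± 0.12. Without DMSO replicate 2 ugt5c3 passed with 0.42 (adjusted p = 0.0261, range 0.0261 to 0.376 across the alternatives). Without DMSO replicate 1 ugt5e1 passed with -0.35 (adjusted p = 0.0414, range 0.0414 to 0.404 across the alternatives).

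The gene ugt8 (gene ID 553508) stands outside glucuronidation. It encodes the enzyme that joins galactose to ceramide, a step in making the lipids of myelin. It had 43.3, 47.6 and 43.2 CPM with DMSO and 50.4, 52.5 and 50.5 CPM with DAPT (log2 difference 0.19 ± 0.06, adjusted p = 0.0189). The groups did not overlap, but the difference was small, and the call was lost in 3 fits that left out a library: without DMSO replicate 1 (0.17, adjusted p = 0.0658), DAPT replicate 2 (0.18, 0.0678) or DAPT replicate 3 (0.21, 0.0509). In TPM its groups overlapped, at 14.5 ± 0.890 and 14.9 ± 0.216. Adjusted p was 0.00655 to 0.683 over its alternatives. Of 8 oligodendrocyte and myelin markers none rose, 6 fell and 2 did not pass, where 24.3% of all genes tested were lower. Their sum was 168 to 199 CPM with DMSO and 152 to 170.2 CPM with DAPT.

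Levels of different genes were compared per length, in the deposited TPM values (read density scaled to a common total). With DMSO ugt1a7 led at 61.9 ± 2.21 TPM, followed by ugt1ab at 45.7 ± 3.41 TPM, and these did not overlap. Next came ugt1b1 at 26.1 ± 0.934, ugt5b3 at 22.1 ± 3.46, ugt5b4 at 21.8 ± 2.67, ugt1a1 at 20.6 ± 0.885 and ugt5b2 at 20.0 ± 1.28 TPM. The values of the last 4 overlapped, and so did those of ugt1b1 and ugt5b3. With DAPT the order was ugt1a7 at 179 ± 5.41, ugt2a4 at 153 ± 3.66, ugt1ab at 144 ± 4.12 and ugt1a1 at 126 ± 5.15 TPM, then ugt2b1 at 89.5 ± 3.09 TPM. The lowest value of each of these was above the highest of the next. All genes named in these orders had counts that were not whole in any library. Their order thus also depends on how reads were divided among similar genes, which was not measured. The gene ugt2a4 moved from rank 27 of 37 with DMSO to rank 2 with DAPT, ugt5a2 from 26 to 11, and ugt1b1 from 3 to 17. The 4 most abundant genes of each group held 35.8 ± 0.404% of the family's TPM with DMSO and 52.3 ± 0.557% with DAPT. At the low end ugt1b3, ugt1b4 and ugt5c1 stayed under 1 TPM in every library.

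**Figure D3:**
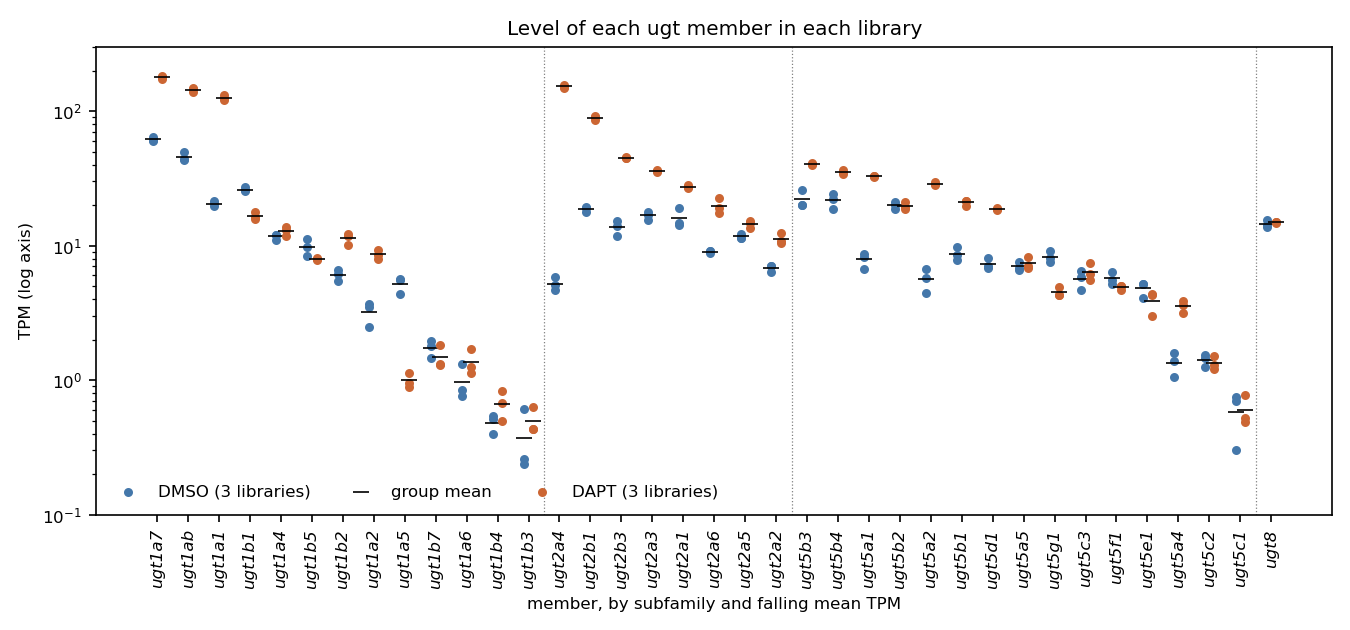
Deposited TPM of each of the 37 ugt members in each of the 6 libraries (log axis), with group means as dashes, grouped by subfamily and ordered by mean level. With DAPT 4 genes exceed 100 TPM (ugt1a7, ugt2a4, ugt1ab and ugt1a1), while with DMSO the highest, ugt1a7, is at 60.4 to 64.4 TPM.

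The estimated make-up of the subfamilies shifted along with their totals. Of the summed ugt2 TPM, ugt2a4 held 5.34 ± 0.676% with DMSO and 38.6 ± 0.553% with DAPT. The shares of ugt2a1 and ugt2a3 went from 16.3 ± 2.15% to 6.89 ± 0.270% and from 17.1 ± 0.661% to 9.05 ± 0.244%, although both genes rose. Within ugt1, ugt1a1 went from 10.6 ± 0.773% to 24.7 ± 1.01% and ugt1b1 from 13.5 ± 0.111% to 3.25 ± 0.175%. The share of ugt1a7 was 31.9 ± 0.247% and 35.0 ± 0.968%. Within ugt5, ugt5a1 went from 6.18 ± 0.632% to 14.3 ± 0.348% and ugt5b2 from 15.7 ± 1.71% to 8.64 ± 0.581%, while ugt5b3 held 17.2 ± 1.06% and 17.5 ± 0.0585%. A share moves when any other gene of the subfamily moves, and shares were not tested. Unlike a sum, a share also depends on how reads are divided among the members. Counts were not whole in the ugt1 and ugt2 genes and in ugt5b2 and ugt5b3, so these shares carry that limit.

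**Figure D4:**
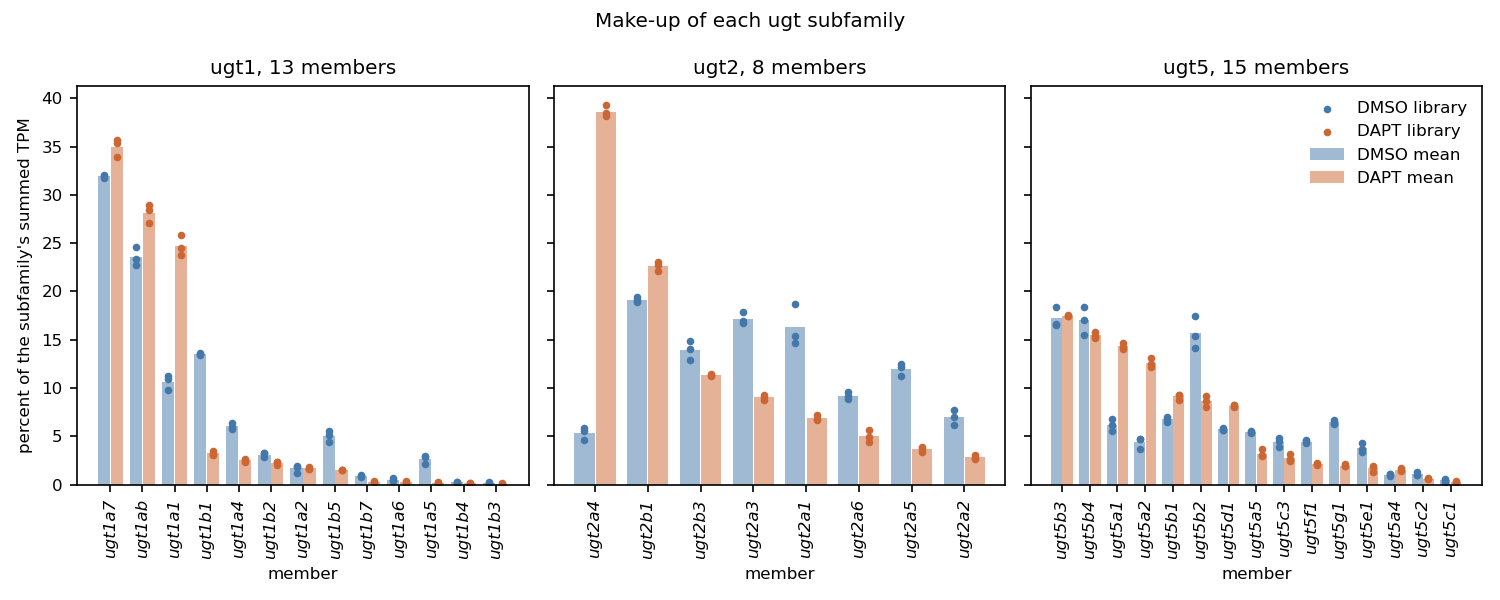
Share of each member in the summed TPM of its subfamily (percent), as group means (bars) and single libraries (points). In ugt2 the share of ugt2a4 is 5.34% with DMSO and 38.6% with DAPT, while the shares in ugt5 are spread over more genes.

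Around the enzymes, 61 genes were listed, of which 60 were found and 59 tested. They cover the sugar donor, removal of glucuronides, export pumps, sensors with their targets, and haem breakdown. Counts over them are thus not counts of glucuronidation genes alone. In all 26 rose, 9 fell and 24 did not pass, with a median log2 fold change of 0.13. This split depended on scaling: 22 were higher and 12 lower with library totals alone, and 20 higher and 13 lower in the test on TPM. The median is about as large as the shift of all genes between these scalings, given below. Of all genes tested 46.6% passed, and 22.4% of all were higher with DAPT. Of the 8 genes listed for the supply, transport or use of UDP-glucuronic acid, the sugar donor, 4 were higher and none lower. The gene ugdh, whose enzyme oxidizes UDP-glucose to UDP-glucuronic acid, had 39.3, 33.8 and 37.5 CPM with DMSO and 223, 239.5 and 215 CPM with DAPT (2.61 ± 0.07, adjusted p = 2.24e-10). The genes ugp2b, which makes UDP-glucose, and pgm1, which makes the glucose phosphate before it, rose by 1.07 ± 0.06 and 0.62 ± 0.06. The gene ugp2a, a relative of ugp2b, did not pass (0.12 ± 0.09). The nucleotide sugar transporter gene slc35d1b rose by 1.67 ± 0.10, whereas slc35d1a (-0.33 ± 0.14), slc35b1 (-0.01 ± 0.07) and uxs1, whose enzyme uses up UDP-glucuronic acid (0.03 ± 0.06), did not pass. The counts of ugdh, ugp2b and pgm1 were whole in every library, and those of slc35d1b were not whole in 5 libraries.

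Pumps that export conjugates had 4 of 11 genes higher, 1 lower and 6 not passing. Of all genes tested 46.6% passed, 22.4% higher and 24.3% lower, so the share of pumps passing was near that of all genes. The gene abcc2, whose human counterpart secretes glucuronides into bile, had 88.4, 87.5 and 77.5 CPM with DMSO and 503, 526 and 506 CPM with DAPT (2.60 ± 0.07, adjusted p = 1.74e-10). The related genes abcc5 and abcc3 rose by 0.71 ± 0.07 and 0.36 ± 0.06, and abcc1 changed by -0.20 ± 0.07 (edgeR adjusted p = 0.0303). Of 4 genes that remove glucuronides or break down glucuronic acid, gusb, the lysosomal beta-glucuronidase, rose by 0.29 ± 0.07, while akr1a1a and akr1a1b changed by -1.13 ± 0.18 and -0.27 ± 0.06. Of 5 genes for the breakdown of haem to bilirubin none rose and 2 fell, hmox1a at -0.51 ± 0.11 and blvrb at -0.25 ± 0.06. The haem oxygenase gene hmox2a did not pass (0.13 ± 0.07).

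Sensors of foreign compounds that are known to regulate such enzymes had 9 of 17 genes tested higher, 2 lower and 6 not passing. Beside this list and those below, 46.6% of all genes tested passed, 22.4% higher and 24.3% lower. The sensor genes that fell were ahr1b, an aryl hydrocarbon receptor gene, at -0.83 ± 0.19, and rxraa at -0.39 ± 0.06. The values of ahr1b were 16.3 ± 5.66 CPM with DMSO and 9.20 ± 0.794 CPM with DAPT. The more abundant receptor gene ahr2, at 185 ± 5.74 and 203 ± 3.97 CPM, did not pass (0.13 ± 0.05, edgeR adjusted p = 0.0667). Nor did the receptor gene ahr1a (-0.48 ± 0.20). The oxidative stress factor genes nfe2l2b and nfe2l2a rose by 1.51 ± 0.09 and 0.56 ± 0.06, as did keap1b, the gene of their inhibitor, by 0.55 ± 0.07. Known targets of these factors had 4 of 8 genes higher, 1 lower and 3 not passing. The target that fell was nqo1, at -0.21 ± 0.07 (edgeR adjusted p = 0.0232). The glutathione transferase gene gstp1 rose by 1.52 ± 0.06, and gclm and gclc, for glutathione synthesis, by 0.95 ± 0.07 and 0.75 ± 0.06. Of 6 genes listed as possible targets of the aryl hydrocarbon receptor 4 rose and 1 fell. That which fell was cyp1a, a common readout of that receptor, from 68.9 ± 14.8 to 37.6 ± 1.79 CPM (-0.87 ± 0.13, adjusted p = 0.000135), while cyp1c1 and tiparp rose by 0.71 ± 0.06 and 0.52 ± 0.07. The counts of gstp1 and cyp1c1 were not whole.

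**Figure D5:**
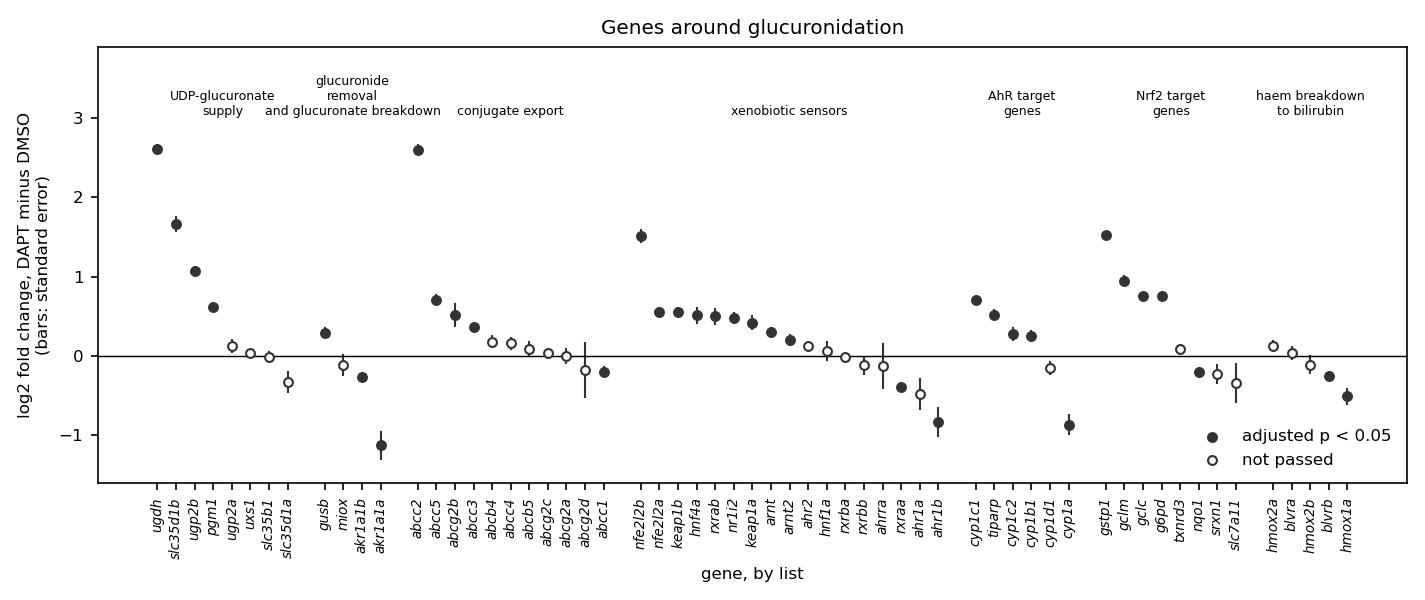
Log2 fold change (DAPT minus DMSO, with its standard error) of the 59 genes tested around glucuronidation, by list. Filled points passed an adjusted p of 0.05. The highest values are those of ugdh at 2.61 and abcc2 at 2.60, and cyp1a lies at -0.87.

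Markers of the organs in which these enzymes are best known moved in different directions. Of all genes tested 22.4% were higher and 24.3% lower with DAPT. Of 12 liver markers 10 fell and none rose, and their sum was 2506 to 3000 CPM with DMSO and 1809 to 1835 CPM with DAPT, with fabp10a at -1.40 ± 0.11. Of 8 pronephros markers 7 fell and none rose, with sums of 273 to 298 and 132 to 157 CPM. Of 8 intestine markers 5 rose, among them vil1 at 1.04 ± 0.06, and 2 fell, among them apoa4b.1 at -1.02 ± 0.07, with sums of 975 to 1097 and 1216 to 1283 CPM. Heart muscle markers had 7 of 8 higher and 1 lower, with sums of 4254 to 5380 and 8369 to 8755 CPM. Of 7 skin markers 1 rose and 3 fell, and of 5 olfactory markers none rose and 1 fell. Both lists are short, and 46.6% of all genes passed. None of the markers was at 0 in all libraries. The part of these cell types in the ugt values was not tested.

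Scaling moved the split of all called genes but not the direction of any called ugt gene. Of all genes called, 48.0% were higher with DAPT under TMM scaling, 32.5% with library totals alone and 24.9% in a test on TPM. The median over all genes was -0.102 with library totals and -0.129 on TPM. In these fits 20 ugt genes were higher and 4 lower. The calls of ugt8 and ugt1a4 were lost in both: ugt8 at 0.10 (adjusted p = 0.206) and 0.04 (0.683), and ugt1a4 at 0.19 (0.0935) and 0.12 (0.241). The call of ugt1b5 or ugt5e1 was gained in 1 of them each.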

How the data were processed

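RNA was sequenced from 3 DMSO and 3 DAPT libraries. The deposited values, per the file headers, are read counts, FPKM and TPM for each gene and library. Since some are not whole (tolerance 1e-06), the deposited counts were read as estimated counts. TPM were scaled by the authors per length to a common total, and the deposited FPKM and group means were not used here. Names listed without a role, per the submitters' processing notes, are build GRCz11, edgeR, featureCounts 1.6.0 and the aligner STAR 2.7.1a. The annotation, strand setting and counting rules are not given in the sources used here.

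Counts were rounded and tested with edgeR 4.0.16 in R 4.3.3: filterByExpr, TMM factors, quasi-likelihood F test with 4 residual degrees of freedom, and Benjamini-Hochberg adjustment over 22092 genes. The biological coefficient of variation was 6.82%. Printed CPM use unrounded counts and TMM factors. A standard error is the log2 fold change divided by the square root of F. No 2 libraries agreed within counting noise (chi-square per gene 1.96 to 10.8 within groups).

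Members and lists were chosen with earlier results of these data known. Values in every library are given for the 4 most abundant members of each subfamily and all members called at 2-fold or more. Of pathway genes all of the UDP-glucuronic acid list and up to 3 per other list, by smallest p, are named. The genes nqo1, abcc1, ahr1b and rxraa are named as well, as those that fell in their lists, and ahr1a and ahr2 beside ahr1b. Markers beside them were chosen after their values were seen. Gene gstp1.2 was matched through its RefSeq ID. In 3 simulations for DAPT minus DMSO with 200 of 21928 genes changed, edgeR recovered 64.2%, 88.9% and 99.5% of changes of 0.5, 1 and 2 (log2). Of its calls 9.55% were false, above the 5% aimed at. In the data 10302 of 22092 genes were called, a far larger part, so these rates may not carry over. Alternatives were RLE factors, library totals, no or a stricter filter, DESeq2 1.42.0, limma 3.58.1 (voom, and log2(TPM + 1)), a replicate block and leaving out each library.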

Additional observations from a re-analysis of the deposited data

How the results depend on the processing

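Of the 25 called ugt genes, 23 kept their call in every alternative that tested them, and ugt8 and ugt1a4 did not. The count of ugt genes higher was 20 to 24 and lower 3 to 4 when a library was left out, and 22 and 3 with DESeq2, limma-voom, RLE factors or no filter. With the stricter filter, which tested 29 of them, it was 21 and 2. All genes called were 8389 to 10129 with a library left out and 8231 to 10483 otherwise. Pathway genes were 26 higher and 9 lower as reported, 23 to 28 and 7 to 10 with a library left out, 22 and 12 with library totals alone, 20 and 13 on TPM, and 23 and 8 with DESeq2. The log2 difference of the summed levels was 1.51 for all members (1.48 to 1.55 with a library left out), 1.58 for ugt1 (1.55 to 1.61), 2.19 for ugt2 (2.16 to 2.22) and 0.97 for ugt5 (0.92 to 1.04). With library totals alone it was 1.41, 1.48 and 2.09 for all members, ugt1 and ugt2, and on TPM 1.41, 1.40 and 2.02. For ugt5 the ratio of group means was 1.82 with library totals and 1.79 on TPM, beside 1.95 in CPM. With library totals these moves are near the shift of all genes under that scaling. On TPM those of ugt1 and ugt2 are larger than the shift of all genes.

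Signs turned in 5 genes that passed in no alternative. The gene ugt1b7 was at 0.04, 0.00 and 0.03 without DMSO replicate 1, DAPT replicate 2 and DAPT replicate 3 (range -0.25 to 0.04 with a library left out). The gene ugt5c1 was at -0.14 and -0.07 without DMSO replicate 1 and DAPT replicate 1 (range -0.14 to 0.42), and ugt5f1 at 0.04 without DMSO replicate 2 (range -0.09 to 0.04). On TPM ugt5b2 and ugt5c2 were at -0.01 and -0.04. Of the 11 genes that did not pass, 4 passed in some alternative. By adjusted p these were ugt1b5 on TPM (0.0490) and without DMSO replicate 3 (0.0388), ugt5e1 with library totals (0.0478) and without DMSO replicate 1 (0.0414), and ugt1a6 (0.0184) and ugt5c3 (0.0261) without DMSO replicate 2. The cause was not tested. For single pathway and marker genes the values printed are those under TMM scaling.

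With the replicate number as a block, 22 ugt genes were higher and 3 lower, and 9716 genes were called in all. Same-numbered libraries did not deviate together (correlations 0.00917, -0.0679 and -0.0255), so the numbers were not taken as pairs. Counts were not whole in all ugt1 and ugt2 genes and in 9 ugt5 genes, and how far this limits each was not measured. The genes ugt1b4 and ugt5c1, under 1 TPM in every library, had standard errors of 0.33 and 0.38.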

Other observations

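A further family gene stands in the table under its ID (792506) in place of a symbol and so was no member. RefSeq's table names it ugt2b6. It had 15.2, 18.6 and 15.2 CPM in the DMSO libraries and 26.2, 27.4 and 28.2 CPM in the DAPT libraries, with no overlap (log2 fold change 0.74 ± 0.09, edgeR adjusted p = 2.9e-05). Its counts were not whole in any library. It rose like the 8 ugt2 genes described above, though less than ugt2b1 and ugt2b3 by value, a difference that was not tested.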
